A study of Mus musculus with 8 samples.

Results

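The circadian clock genes examined here are Per1, Per2, Per3, Cry1, Cry2, Arntl, Clock, Nr1d1, Nr1d2 and Dbp. Every probe that carries 1 of these 10 symbols in the deposited table was taken, which gave 17 probes of 25697 probes in all, and 10 gene symbols of 18120. RNA came from STHdh striatal cells, a conditionally immortalized mouse line derived from embryonic striatum and wild-type for huntingtin. In 4 samples the cells carried a pcDNA3.1 plasmid expressing mouse Bcl11b, a zinc finger transcription factor of striatal neurons, and in 4 samples they carried the empty pcDNA3.1 plasmid (mock). The labels call the control cells wild-type. All cells were harvested 2 days after transfection, and each sample was hybridized to 1 Illumina MouseRef-8 v2 array. A time of day of harvest or a step that sets the cells to a common clock phase is not given in the sources used here, so each value is the level in 1 sample at 1 time.

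The clock of mammalian cells is a loop of transcription and repression that most cell types carry, striatal neurons among them. The proteins Clock and Arntl (also called Bmal1) bind DNA together at E-boxes and switch on the Per, Cry, Nr1d1, Nr1d2 and Dbp genes. Per and Cry proteins enter the nucleus and repress Clock and Arntl, while Nr1d1 and Nr1d2 (the REV-ERB nuclear receptors) repress Arntl, and Dbp activates genes through D-boxes. In unsynchronized cultures single cells run out of phase with each other, so RNA from a culture averages over phases.

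On the Bcl11b arrays Per2, a repressor of the loop, was lower than on the mock arrays, with 69.9% and 75.6% of the mock level by its 2 detected probes. No clock gene probe was higher by the same test. For the other 7 genes that were detected on all 8 arrays (Per1, Cry2, Arntl, Clock, Nr1d1, Nr1d2 and Dbp), the difference between groups did not pass the test, and the only probes of Per3 and Cry1 were not detected on any array.

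The short sequences through which these factors act were searched in the 250 bases before each annotated RNA start (RefSeq annotation of GRCm38.p6, both strands, 32851 windows of that length). There were 13 windows for 9 of the 10 genes, all but Per2. The E-box CACGTG was found in 2 of the 13 windows (Per1 and Cry1) and in 6.02% of all windows. The E-prime box CACGTT, a weaker site for Clock and Arntl, was found in 3 (Cry1, Cry2 and Nr1d1) and in 3.85% of all. The D-box, searched as TTATGTAA or TTACGTAA, was found in 1 member window (Per3, at 2 places) and in 0.931% of all. The core of the ROR element, TAGGTCA, where REV-ERB and ROR receptors bind, and the cyclic AMP response element TGACGTCA were in none of the 13 windows, against 2.23% and 1.55% of all windows. The motifs do not overlap each other in these windows, and a match gives letters only, not binding. The first of 2 windows of Per1 and the windows of Per3, Nr1d1 and Nfil3 follow, picked because each holds a different class of clock motif. The other Per1 window held none of the motifs. Nfil3 is not among the 10 genes, and the window of Nampt, also outside them, was searched in the same way and held none. They run 5′ to 3′ on the strand of the gene and end at the base before the RNA start, and the capitals mark the motif (E-box in Per1, D-boxes in Per3, E-prime box in Nr1d1 and ROR core in Nfil3, the last 2 read on the opposite strand).
Per1, chr11:69098699-69098948, plus strand: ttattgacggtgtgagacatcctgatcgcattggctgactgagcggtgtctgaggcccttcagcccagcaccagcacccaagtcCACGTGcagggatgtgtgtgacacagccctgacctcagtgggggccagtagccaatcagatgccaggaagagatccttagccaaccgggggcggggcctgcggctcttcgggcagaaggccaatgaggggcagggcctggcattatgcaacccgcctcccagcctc
Per3, chr4:151044666-151044915, minus strand: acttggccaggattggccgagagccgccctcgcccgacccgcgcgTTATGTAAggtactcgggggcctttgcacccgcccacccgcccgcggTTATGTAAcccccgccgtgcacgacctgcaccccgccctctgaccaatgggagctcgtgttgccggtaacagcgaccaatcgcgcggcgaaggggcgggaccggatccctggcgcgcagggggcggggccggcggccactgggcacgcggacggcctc
Nr1d1, chr11:98775378-98775627, minus strand: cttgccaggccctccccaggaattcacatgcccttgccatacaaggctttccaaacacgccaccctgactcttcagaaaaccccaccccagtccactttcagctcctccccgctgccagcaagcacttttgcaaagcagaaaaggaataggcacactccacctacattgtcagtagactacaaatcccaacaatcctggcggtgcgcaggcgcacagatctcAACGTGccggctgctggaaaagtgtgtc
Nfil3, chr13:52981040-52981289, minus strand: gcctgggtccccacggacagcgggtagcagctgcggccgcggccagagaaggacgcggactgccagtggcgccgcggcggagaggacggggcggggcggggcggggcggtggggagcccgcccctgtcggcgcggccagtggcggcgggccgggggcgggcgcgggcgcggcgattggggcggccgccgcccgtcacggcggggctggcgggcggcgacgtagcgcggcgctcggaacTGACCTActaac
In the printed Per1 window the E-box lies at bases -166 to -161 from the start, and in the Per3 window the D-boxes lie at -205 to -198 and -158 to -151. The E-prime box of Nr1d1 lies at -28 to -23 and the ROR core of Nfil3 at -12 to -6.

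Before normalization the mock arrays were brighter, with a median signal of 31.6 to 53.9 against 20.1 to 30.2 on the Bcl11b arrays. Probes counted as detected, at a detection p-value below 0.01 against the negative control beads, numbered 10121 to 10784 on the mock and 10342 to 10644 on the Bcl11b arrays. Signals were quantile-normalized, which gives every array the same distribution, and set to at least 1 before the log2, and all levels given here are log2 normalized signals. On each array 30.6% to 31.6% of the deposited signals were 0 or below. The only Bcl11b probe was not detected on any array, so the transfection itself cannot be seen in these data. Of the markers listed for striatal projection neurons 8 of 10 were matched, of which 7 were detected on no array and Pde10a, a striatal phosphodiesterase, on 4. Pde10a had a mean of 6.63 on the mock and 5.82 on the Bcl11b arrays, a difference of -0.81 (limma adjusted p = 0.475) that passed the unadjusted rule used below for the clock genes. The summed level of the striatal list (log2) was 7.71 to 7.93 on the mock and 7.36 to 7.57 on the Bcl11b arrays, without overlap, so it moved in the same direction as Per2. This sum includes the 7 probes detected on no array, so much of it is signal below detection. Among them Drd2 had means of 5.93 on the mock and 5.82 on the Bcl11b arrays, Ppp1r1b 5.62 and 5.57, and Drd1a 2.62 and 0.45. Tac1, with 0.89 and 1.39, and Bcl11b, with 0.35 and 1.32, went the other way. Adora2a and Rgs9 were at 0 in both groups. The share of all probes without overlap was not counted. The sums of the other lists overlapped between the groups. The neural progenitor markers Nes, Sox2 and Vim were detected on all 8 arrays and Pax6 on none, and Map2 was the only one of 4 matched neuron markers detected on all 8. The 3 matched oligodendrocyte and the 3 microglia markers were on none, and of 5 astrocyte markers 4 were on none and Slc1a3 was on 4. Of 5 matched mesenchymal markers, Col1a1, Pdgfrb and Dcn were detected on all 8 arrays, and the summed level of the list was 11.15 to 11.98 on the mock and 11.53 to 11.94 on the Bcl11b arrays. Within it Dcn rose by 1.47 on the log2 scale (limma adjusted p = 0.0492) and the difference of Pdgfrb was -0.49 (limma adjusted p = 0.309). The part of cell makeup in the clock gene values was not tested, and fewer cells of a type and less RNA per cell cannot be told apart in these samples.

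A probe is called lower or higher here where limma gave an unadjusted p under 0.05 and a log2 difference of at least 0.32 in size, the minimum fold change of the study (the unadjusted rule), and the study's stricter threshold is an adjusted p of 0.10 (Benjamini-Hochberg over all 25697 probes). By the unadjusted rule 5.81% of all probes were lower and 3.2% were higher on the Bcl11b arrays, and among the 9360 probes detected on all 8 arrays 10.5% were lower and 3.8% were higher. By the adjusted threshold 0.627% of all probes were lower. Of the 17 clock gene probes, 11 were detected on all 8 arrays, 2 on some and 4 on none. Of all 17 probes 3 were lower (both detected Per2 probes and the Per3 probe) and 0 were higher, and the 2 Per2 probes passed the adjusted threshold. Of the 11 probes detected on all arrays, 8 had a lower mean on the Bcl11b arrays, where 53.4% of the 9360 probes did, and the median difference of the 11 was -0.22 on the log2 scale against -0.026 for the 9360.

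**Figure D1:**
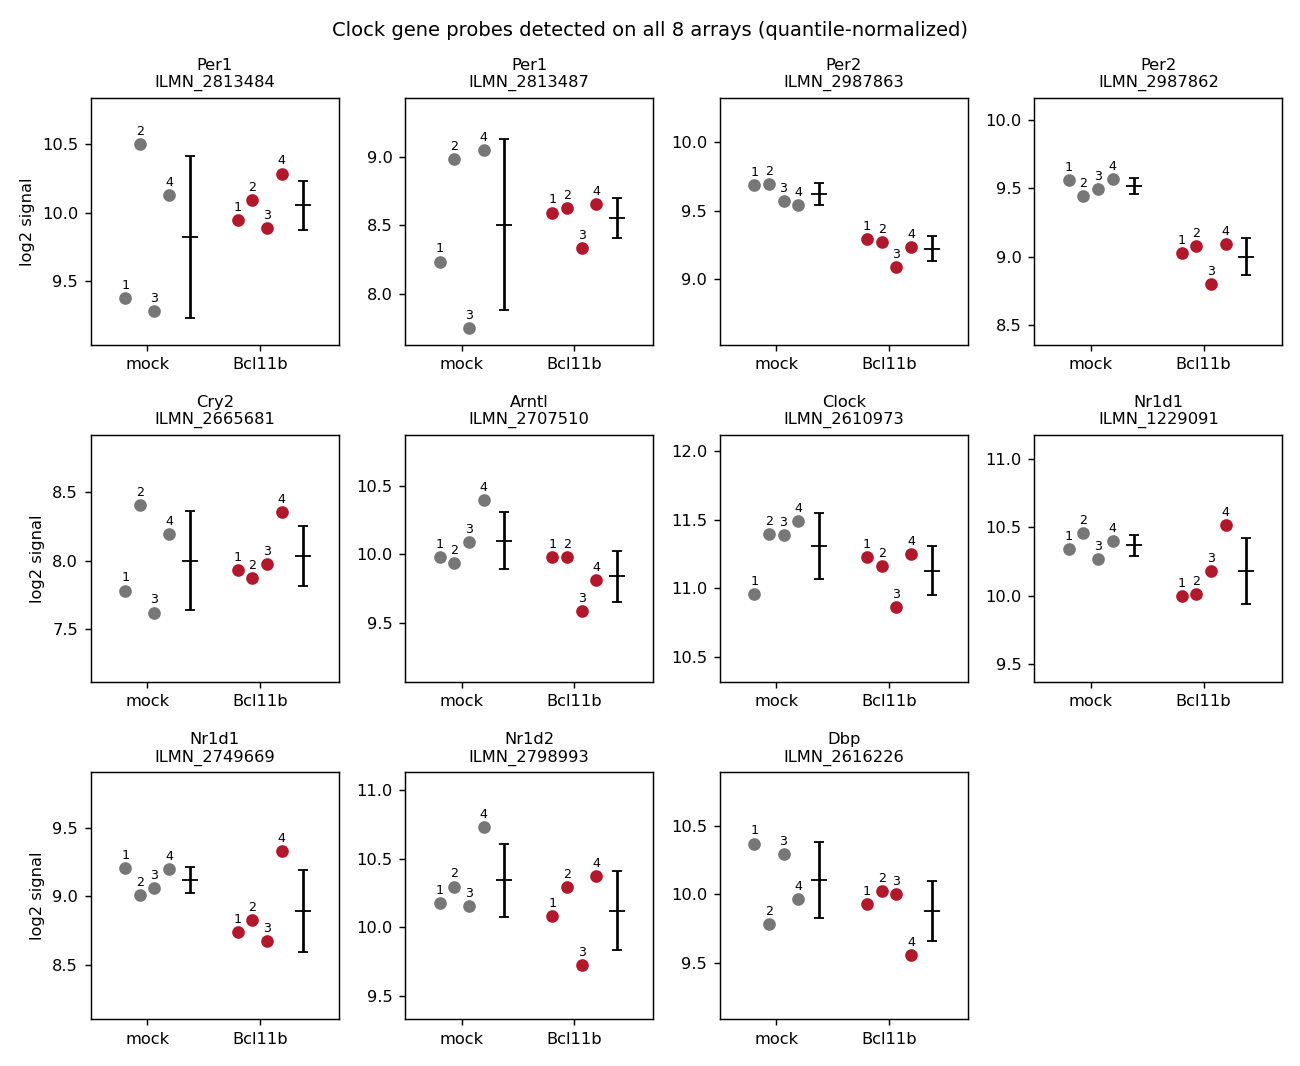
Log2 normalized signal of the clock gene probes detected on all 8 arrays, with 1 point per array for the 4 mock and the 4 Bcl11b arrays numbered by replicate, and the mean with its SD beside each group. The mock and Bcl11b points of both Per2 probes lie apart, while those of the other probes share part of their range. How many of all probes lie apart in this way was not counted.

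The Per genes encode the period proteins, which limit their own transcription together with Cry proteins. With the brighter Per2 probe (ILMN_2987863) the levels were 9.69, 9.70, 9.57 and 9.54 on mock arrays 1 to 4 and 9.29, 9.27, 9.09 and 9.23 on Bcl11b arrays 1 to 4. The highest Bcl11b level was under the lowest mock level. The means were 9.62 ± 0.081 (SD, n = 4) and 9.22 ± 0.091 (SD, n = 4), a difference of -0.40 (SE 0.059, 95% confidence interval -0.55 to -0.26) or 1.32-fold lower, with a limma adjusted p of 0.0622. With the other detected Per2 probe (ILMN_2987862) the mock arrays gave 9.56, 9.45, 9.50 and 9.57 and the Bcl11b arrays 9.03, 9.08, 8.81 and 9.09. Here too the groups did not overlap, but the share of all probes without overlap was not counted. The difference was -0.52 (SE 0.0705, 95% confidence interval -0.69 to -0.35), 1.43-fold lower, with a limma adjusted p of 0.0558. Both probes read the same RNA on the same arrays and are not independent samples. In every alternative both passed the unadjusted rule, but the adjusted threshold was met in 4 of 18 alternatives for the first probe and in 6 of 17 for the other, with limma adjusted p from 0.0509 to 0.298 and from 0.0308 to 0.218. Variances in the main fit were moderated over all probes, including those set to 1, so its p-values and intervals depend on that choice. With the fit limited to probes at a detection p under 0.01 on 4 or more arrays, both differences were unchanged. The limma adjusted p was then 0.165 (ILMN_2987863) and 0.1065 (ILMN_2987862). A Per2 probe of very low signal, ILMN_1258523, was not detected on any array, with detection p-values from 0.394 to 0.684, and it gives no information on the change.

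Per1, which responds early to serum and other stimuli as well as to the clock, gave 9.38, 10.50, 9.28 and 10.13 on the mock arrays and 9.95, 10.10, 9.89 and 10.29 on the Bcl11b arrays (ILMN_2813484). The Bcl11b arrays lay inside the range of the mock arrays, which was wide. The difference was 0.23 (SE 0.298, 95% confidence interval -0.49 to 0.95, limma adjusted p = 0.913). The dimmer Per1 probe (ILMN_2813487) gave 0.048 with an interval of -0.70 to 0.79 and an adjusted p of 1 in the same fit, so a fall as large as that of the brighter Per2 probe lies within both intervals. Without normalization between arrays both Per1 differences were negative, and without mock replicate 1 or 3 that of the dimmer probe was. The single Per3 probe had detection p-values from 0.0702 to 0.425 and is not counted as expressed. It passed the unadjusted rule (limma adjusted p = 0.277), with normalized levels of 4.33 to 5.15 on the mock and 0 to 3.07 on the Bcl11b arrays, below the dimmest signal detected on any array. No fold change is given for it.

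The cryptochromes Cry1 and Cry2 are the strongest repressors of Clock and Arntl. The only Cry1 probe was not detected on any array, with detection p-values from 0.644 to 0.957, so its level is not known from these arrays. Cry2 gave 7.78, 8.41, 7.62 and 8.19 on the mock arrays and 7.94, 7.87, 7.97 and 8.35 on the Bcl11b arrays. The groups overlapped almost completely. The difference was 0.033 (95% confidence interval -0.46 to 0.52, limma adjusted p = 1), and its sign was negative in 5 of 18 alternatives.

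Arntl and Clock encode the activators of the loop. Arntl, whose RNA usually peaks opposite to that of Per2, gave 9.98, 9.94, 10.09 and 10.40 on the mock arrays and 9.98, 9.98, 9.59 and 9.81 on the Bcl11b arrays. The lowest values were those of Bcl11b replicates 3 and 4, and the other Bcl11b arrays lay within the mock range. The difference was -0.26 (SE 0.135, 95% confidence interval -0.59 to 0.06, limma adjusted p = 0.618). Clock, by its brightest probe (ILMN_2610973), gave 10.96, 11.39, 11.39 and 11.49 on the mock arrays and 11.23, 11.16, 10.86 and 11.25 on the Bcl11b arrays. The groups overlapped through mock replicate 1. The difference was -0.18 (95% confidence interval -0.53 to 0.17, limma adjusted p = 0.802). A dim Clock probe (ILMN_2600964), detected on 2 mock arrays and 1 Bcl11b array, gave -0.17 with an adjusted p of 0.922, and a further Clock probe (ILMN_2589603) was detected on no array.

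Nr1d1 and Nr1d2 are haem-binding nuclear receptors that repress Arntl, and their RNA usually follows Clock and Arntl activity closely. Nr1d1 (ILMN_1229091) gave 10.34, 10.46, 10.27 and 10.40 on the mock arrays and 9.999, 10.01, 10.18 and 10.52 on the Bcl11b arrays. Bcl11b replicates 1 to 3 lay below all mock arrays and Bcl11b replicate 4 above them. The difference was -0.19 (95% confidence interval -0.48 to 0.11, limma adjusted p = 0.717). The other Nr1d1 probe (ILMN_2749669) showed the same arrangement, with 9.20, 9.01, 9.06 and 9.20 on the mock arrays and 8.74, 8.82, 8.68 and 9.33 on the Bcl11b arrays. Its difference was -0.23 (95% confidence interval -0.59 to 0.14, limma adjusted p = 0.736). Without Bcl11b replicate 4 the differences were -0.30 and -0.37, and the second probe then passed the unadjusted rule (limma adjusted p = 0.117). It also passed with arrayWeights (-0.33) and without normalization between arrays (-0.93), and leaving out any other single array did not make it pass.

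Nr1d2 (ILMN_2798993) gave 10.18, 10.30, 10.16 and 10.73 on the mock arrays and 10.09, 10.30, 9.73 and 10.38 on the Bcl11b arrays. The groups overlapped. The difference was -0.22 (95% confidence interval -0.68 to 0.24, limma adjusted p = 0.802). A dim Nr1d2 probe (ILMN_2602387), detected on 2 mock arrays and 1 Bcl11b array, had an interval of -2.01 to 1.01. Dbp, a clock-driven activator that carries the rhythm to output genes, gave 10.37, 9.79, 10.29 and 9.97 on the mock arrays and 9.93, 10.03, 10.005 and 9.56 on the Bcl11b arrays. Again the groups overlapped, and the difference was -0.23 (95% confidence interval -0.64 to 0.19, limma adjusted p = 0.791).

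**Figure D2:**
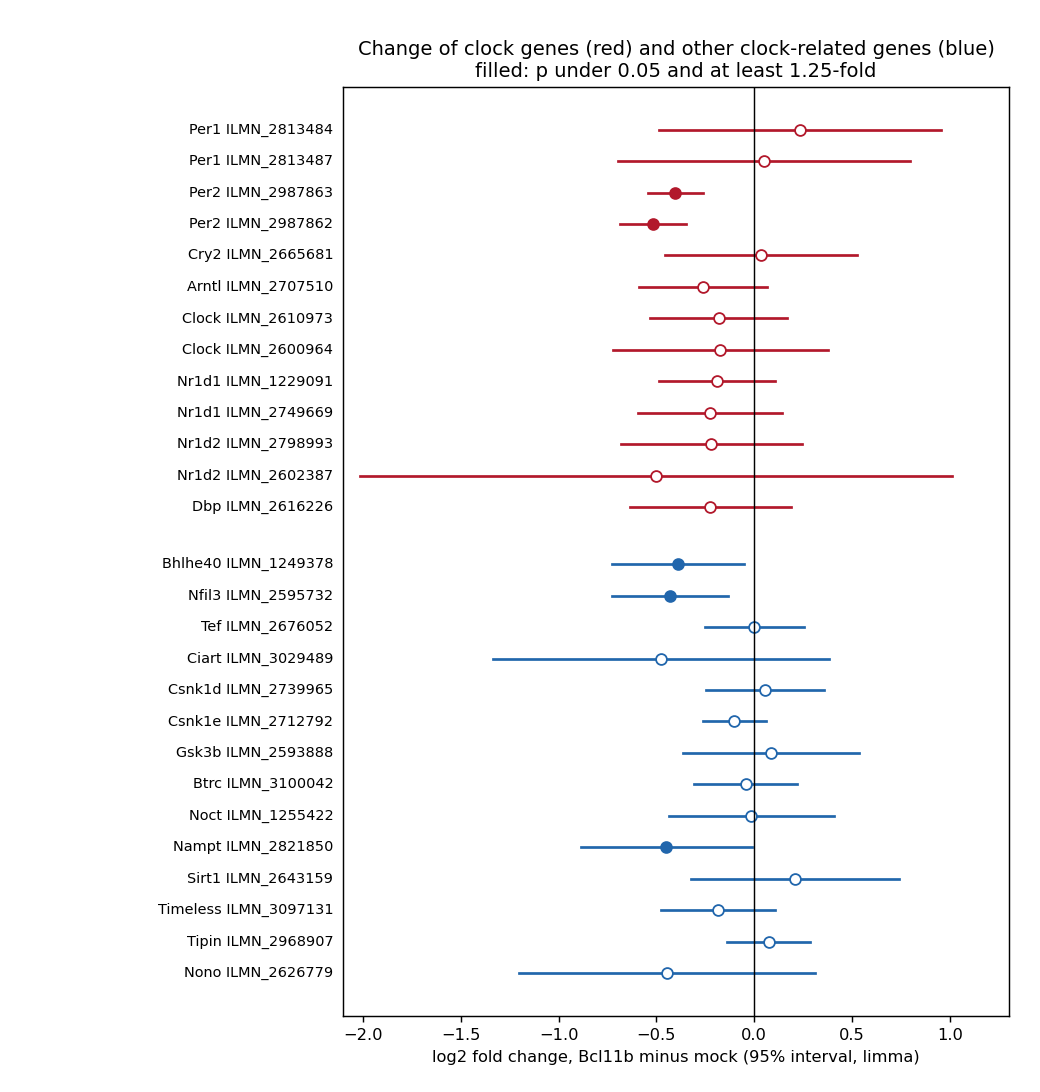
Difference in log2 normalized signal (Bcl11b minus mock) with its 95% confidence interval for each clock gene probe detected on at least 1 array (red) and for the brightest probe of 14 other detected pathway genes (blue), with filled points past the unadjusted rule. Among clock genes only the intervals of both Per2 probes lie below 0, at -0.55 to -0.26 and -0.69 to -0.35, and among the other genes those of Bhlhe40, Nfil3 and Nampt do.

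That Per2 passed the test and the others did not is no test of a difference between them. The change in Per2 was therefore set against that in each of the 7 other detected genes within the arrays, by an exact two-sided permutation test over the arrays, whose smallest possible p is 0.0286. Per2 was picked for this after its values were seen. The largest gap was to Per1, whose difference lay 0.64 above that of Per2 (exact permutation p = 0.0857), followed by Cry2 at 0.44 (exact permutation p = 0.171). The gaps to Arntl, Clock, Nr1d1, Nr1d2 and Dbp were 0.14 to 0.22, with exact permutation p from 0.2 to 0.429. After adjustment over the 7 comparisons every p was 0.429, so the change in Per2 was not shown to differ from that in any of them.

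The arrays of 1 group also differed among themselves in several clock genes. Per1 was highest on mock replicate 2, Bcl11b replicate 4 and mock replicate 4, and Cry2 was highest on the same 3 arrays. Dbp was lowest on Bcl11b replicate 4 and mock replicate 2 and highest on mock replicates 1 and 3. Ciart, a repressor of Clock and Arntl that is itself clock-driven, gave 9.85, 8.69, 9.68 and 9.25 on the mock and 9.20, 9.13, 9.13 and 8.11 on the Bcl11b arrays, with its lowest levels on Bcl11b replicate 4 and mock replicate 2. Its group difference was -0.48 by this probe and -0.026 by a dimmer one, neither past the unadjusted rule. The dimmer Ciart probe (ILMN_3102736) had a different order of arrays. Its lowest levels were 8.717 on Bcl11b replicate 4 and 8.719 on mock replicate 4, with 8.84 on mock replicate 2. Over the 9360 probes detected on all arrays, the deviations from the group mean correlated at 0.70 between mock replicate 4 and Bcl11b replicate 4 and at 0.56 between mock replicate 2 and Bcl11b replicate 4. Mock replicates 2 and 4 correlated at 0.15. Deviations within 1 group sum to 0, so pairs within a group and pairs between groups are not comparable in these values. These are correlations across probes, which are not independent replicates. The part of such array-wide differences in the clock gene values was not tested. Per2 had a small spread within each group, with the SD of 0.081 and 0.091 given above.

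**Figure D3:**
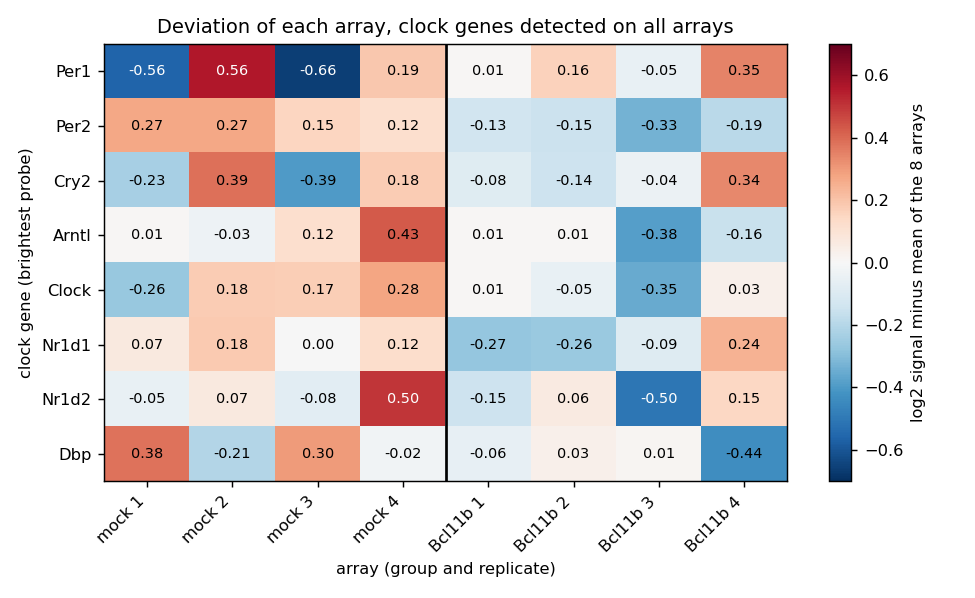
Log2 normalized signal of each clock gene's brightest probe minus its mean over the 8 arrays, with arrays and genes on the axes and the value printed in each cell. Per2 is above its mean on all 4 mock arrays and below it on all 4 Bcl11b arrays, while Per1 and Dbp have both signs in each group.

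By the root mean square distance of standardized levels over the 8 arrays, the 3 probes with a pattern most like that of Per2, among 9358 other probes detected on all arrays, were Ptpns1, AI661311 and Klf3. A probe picked by this distance must share the split of Per2 between the groups. The differences and p-values of these probes are therefore descriptive and no separate result. Ptpns1, an older symbol for the membrane receptor gene Sirpa, lay at a distance of 0.210 and fell by 0.60 on the log2 scale (limma adjusted p = 0.0435). AI661311, a transcript of unassigned function, lay at 0.244 and had a difference of -0.24 (limma adjusted p = 0.151). Klf3, a zinc finger repressor, lay at 0.272 and fell by 0.66 (limma adjusted p = 0.0765).

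A further 24 genes of the clock pathway, listed by role, were all matched on the array, some by an older symbol. Of their brightest probes 14 were detected on all 8 arrays and 10 on none. The undetected genes were Npas2, Arntl2, Rora, Rorb, Bhlhe41, Hlf, Fbxl21, Fbxw11, Usp2 and Wee1. Thus the alternative partners of Arntl and Clock (Npas2 and Arntl2) and the nuclear receptors Rora and Rorb, which activate Arntl, were below detection on these arrays. By the unadjusted rule 4 of the 24 were lower and 0 higher, with Wee1 among the 4 although not detected. The 3 detected genes that were lower, Nfil3, Bhlhe40 and Nampt, stand beside the 10.5% lower among all probes detected on all arrays, and 0 of the 24 passed the adjusted threshold. The median difference of the 14 detected genes was -0.072, with 10 lower and 4 higher in mean.

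Nfil3, a repressor that competes with Dbp at D-boxes and whose promoter window holds the ROR core printed above, gave 10.94, 11.09, 11.48 and 11.20 on the mock arrays and 10.61, 10.75, 10.74 and 10.89 on the Bcl11b arrays. The groups did not overlap, which was not counted over all probes. It fell by 0.43 (SE 0.123, 95% confidence interval of the difference -0.73 to -0.13), 1.35-fold, with a limma adjusted p of 0.284, and dividing each array by its median in place of quantile normalization left -0.34 and an unadjusted limma p of 0.0556. Bhlhe40, a repressor that occupies E-boxes, gave 10.84, 11.10, 11.05 and 11.12 on the mock arrays and 10.64, 10.69, 10.30 and 10.94 on the Bcl11b arrays. The groups overlapped through mock replicate 1 and Bcl11b replicate 4, and the difference was -0.39 (95% confidence interval -0.73 to -0.05, limma adjusted p = 0.399). Nampt, the clock-driven enzyme that limits NAD synthesis, gave 9.48, 9.21, 9.04 and 9.63 on the mock and 8.78, 9.25, 8.63 and 8.92 on the Bcl11b arrays. Its difference was -0.45 (95% confidence interval -0.89 to -0.01, limma adjusted p = 0.463), with overlap. The calls of Bhlhe40 and Nampt were lost in 7 and in 10 of 18 alternatives, among them dropping any 1 of mock replicates 2, 3 and 4 or of Bcl11b replicates 1, 2 and 3 for Bhlhe40.

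The other detected genes of the pathway did not pass the unadjusted rule, and the change that their intervals allow differs between genes. Tef, an activator of the same family as Dbp, differed by -0.0004 on the log2 scale, with an interval of -0.25 to 0.25. The kinases of Per proteins Csnk1d and Csnk1e differed by 0.054 and -0.10, and Gsk3b by 0.085. Dimmer probes detected on all 8 arrays gave 0.14 to 0.23 for Csnk1d and 0.16 for Csnk1e, none past the unadjusted rule. Btrc, which marks Per proteins for removal, differed by -0.043 and Noct, a clock-driven phosphatase, by -0.015. For Noct a dimmer probe detected on all 8 arrays (ILMN_2591440) gave -0.20, with an interval of -0.43 to 0.02. It did not pass the unadjusted rule. The intervals of Ciart (-0.48), Nono (-0.44), Sirt1 (0.21), Timeless (-0.19) and Tipin (0.074) all included 0. They were wide for Ciart (-1.34 to 0.38), Nono (-1.20 to 0.31) and Sirt1 (-0.32 to 0.74). A fall as large as that of the brighter Per2 probe lies within those of Ciart, Nono, Timeless (-0.48 to 0.10) and Noct (-0.44 to 0.41). A dimmer Tipin probe detected on all 8 arrays (ILMN_1234909) gave -0.21.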

How the data were processed

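Expression was measured in STHdh cells on 8 single-colour Illumina arrays, and groups and replicate numbers came from the sample titles. The authors deposited background-subtracted intensities from GenomeStudio (version not given), averaged over the beads of a probe and not normalized between arrays. They also deposited a detection p-value for each probe and array. Their methods name quantile normalization and limma, with thresholds of an adjusted p of 0.10 and of p 0.05 with a minimum fold change (a log2 difference of 0.32), and these were followed.

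Intensities were quantile-normalized, values under 1 were set to 1, log2 was taken, and limma (version 3.58.1, R 4.3.3; lmFit and eBayes) compared the groups over all 25697 probes with Benjamini-Hochberg adjustment. A probe counted as detected at a detection p under 0.01, and no fold change is given for one detected on no array. All probes of the 10 genes are reported. A gene was represented by the probe with the highest mean log2 signal. Pathway genes outside the 10 are given array by array only where they were detected and passed the unadjusted rule, except Ciart, whose values were chosen after they were seen, and the rest are given by their differences. Besides the 24 pathway genes described, 2 others are not reported here. Members and lists were chosen with earlier results of these data known. The labels do not say that replicates were separate cultures, but a figure legend of the paper speaks of 4 different sets of transfected cells. The limma p-values set each group difference against the spread between these samples, moderated over all probes, and part of that spread may be technical. Precision is limited by the number of arrays. The fit was tested on data drawn with known answers, where 80 (40%) of 200 probes given a log2 difference of 1 passed the adjusted threshold, as did 10 unchanged ones. The noise was drawn independently for each probe and array, whereas the real arrays share deviations across probes. A difference as small as that of Per2 was not drawn. These counts therefore do not give the error rates of the real data.

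Alternatives were signals without normalization, neqc, the array median as divisor, 1 probe per symbol, arrayWeights, limma-trend (robust eBayes), a replicate block, an offset of 16, filters at a detection p of 0.01 or 0.05 on 4 or more arrays, and leaving out each array. Promoter windows are from RefSeq (GRCm38.p6). Lengths and probe sequences were not used here.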

Additional observations from a re-analysis of the deposited data

How the results depend on the processing

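The count of clock gene probes lower by the unadjusted rule (3) rose to 11 without normalization between arrays, where the median log2 difference over all probes was -0.49, and ranged from 3 to 4 when 1 array was left out. None was higher in any alternative. The count past the adjusted threshold (2, both Per2) was 0 without normalization, with division by the array median, with detection filters at 0.01 and 0.05, with limma-trend and with the replicate block, 1 with an offset of 16 and with 1 probe per symbol, and 3 with neqc. The probe added with neqc was one detected on no array. It ranged from 0 to 2 on leaving out 1 array, with 0 without mock replicate 1, 3 or 4 or Bcl11b replicate 2. The lower pathway genes outside the 10 (4) numbered 11 without normalization, 1 with the array median and 1 to 3 on leaving out 1 array (1 without mock replicate 2 or 4 or Bcl11b replicate 1, 2 without Bcl11b replicate 3 or 4), and the higher ones (0) numbered 0 to 1. Without normalization the difference of Per1 was -0.46 (ILMN_2813484) and -0.65 (ILMN_2813487), and that of Cry2 was -0.70. ILMN_2813487 was at -0.037 without mock replicate 1 and -0.20 without mock replicate 3, and at most at 0.23 without another array. Cry2 was at -0.059 with arrayWeights, -0.040 without mock replicate 1, -0.094 without mock replicate 3 and -0.075 without Bcl11b replicate 4, and at most at 0.17 without another array. Leaving out 1 array also moved differences that passed no threshold, from 0.052 (without mock replicate 3) to 0.46 (without mock replicate 2) for Per1 ILMN_2813484, from -0.31 to -0.089 (without Bcl11b replicate 3) for Nr1d2 ILMN_2798993, from -0.33 to -0.12 (without Bcl11b replicate 4) for Dbp, from -0.32 to -0.16 (without mock replicate 4) for Arntl and from -0.30 (without mock replicate 1) to -0.094 (without Bcl11b replicate 3) for Clock ILMN_2610973. Over all probes 823 were higher and 1494 lower, against 1244 and 1120 with the array median, and 91 and 161 by the adjusted threshold against 100 and 46. Counts of adjusted calls over all probes also moved with the block (23 and 22) and limma-trend (35 and 10).

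Replicate numbers showed no pairing of all samples, since deviations of same-numbered arrays correlated at 0.68, -0.63, 0.18 and 0.70, and not every array correlated best with its own number. Such correlations cannot show whether samples were paired in the experiment, because arrays of different numbers also share deviations. With the replicate block the Per2 differences were unchanged in size, with limma adjusted p of 0.158 (ILMN_2987863) and 0.212 (ILMN_2987862), and the lower counts were 3 and 4, the latter with Nampt no longer called and another gene in its place. Signal over background limits the data at Per3 and Cry1, which no alternative makes measurable.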

Other observations

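Within each group of 4 arrays, 22 sets of values of clock gene probes detected on all arrays were examined for a single array far from the other three by Dixon's test, and 0 passed its 95% critical value, where chance gives about 1 in 20.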
